A study of Mus musculus with 8 samples.

Results

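The matrix proteoglycans are proteins of the extracellular matrix that carry, or belong to a family that carries, long sulphated sugar chains. To ask how their transcripts respond to oxygen in bone mesenchymal stem cells (MSCs), the 10 genes Fmod, Bgn, Dcn, Lum, Ogn, Aspn, Prelp, Omd, Podn and Vcan were taken by symbol from a table of 53465 genes. All 10 passed the filter on low counts, as did 14369 genes in all. The MSCs came from the hind limb bones of wild-type male C57BL/6N mice aged 3 to 5 months. Cells growing out of the bone pieces were kept at 2% O2 and sorted as CD45-/Ter-119-/Sca-1+/CD140a+, on day 12 per the labels. The sorted population was then divided. In the hypoxia group it returned to 2% O2, and in the normoxia group it moved to 21% O2, for a further week without any other agent, so both groups share the early culture at 2% O2. Each group held 4 samples numbered 1 to 4, described as biologically independent replicates, and RNA was sequenced in bulk. Hence fewer cells of a type and less RNA per cell cannot be told apart.

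Of the 10 proteins, 9 are small leucine-rich proteoglycans, in which a horseshoe of leucine-rich repeats binds collagen, and Vcan encodes the large proteoglycan versican. The small ones sit on collagen fibrils, control their thickness and spacing, and bind growth factors such as TGF-beta. Biglycan and decorin, encoded by Bgn and Dcn, carry chondroitin or dermatan sulphate chains. Fibromodulin, lumican and osteomodulin can carry keratan sulphate. Versican instead binds hyaluronan through its head and carries many chondroitin sulphate chains, forming a loose, hydrated matrix. In bone, these proteins are part of the osteoid and of the surroundings of stromal cells.

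Several of the genes lie side by side, as copies that arose by gene duplication. On chromosome 13 Aspn, Omd and Ogn follow each other on the plus strand, with 14.9 kb from Aspn to Omd and 15.2 kb from Omd to Ogn. Dcn and Lum lie 47 kb apart on chromosome 10, and Prelp and Fmod 116 kb apart on chromosome 1, on opposite strands. In the GENCODE annotation of GRCm38 the whole genes lie as follows. On chromosome 13 are Aspn (ENSMUSG00000021388) at chr13:49544443-49567565, Omd (ENSMUSG00000048368) at chr13:49582462-49592822 and Ogn (ENSMUSG00000021390) at chr13:49608046-49624501, and, far from them on the minus strand, Vcan (ENSMUSG00000021614) at chr13:89655312-89742509. On chromosome 10 are Dcn (ENSMUSG00000019929) at chr10:97479609-97518143 and Lum (ENSMUSG00000036446) at chr10:97565128-97572703, both on the plus strand. On chromosome 1 are Prelp (ENSMUSG00000041577) at chr1:133910304-133921414, minus strand, and Fmod (ENSMUSG00000041559) at chr1:134037254-134048277, plus strand. The remaining members have no other member beside them, Bgn (ENSMUSG00000031375) at chrX:73483602-73495933 on the plus strand and Podn (ENSMUSG00000028600) at chr4:108014791-108096445 on the minus strand. The promoters of the 3 neighbours on chromosome 13, which were lower together at 21% O2, and those of Bgn and Vcan, which were called lower and higher with no overlap between groups, are shown from RefSeq (build GRCm38.p6), from 250 bases before to 50 bases after the start of the gene, 5′ to 3′ on the strand of the gene. They lie at chr13:49544193-49544492 (Aspn, plus strand), chr13:49582212-49582511 (Omd, plus), chr13:49607765-49608064 (Ogn, plus), chrX:73483351-73483650 (Bgn, plus) and chr13:89742463-89742762 (Vcan, minus). Capitals mark a core of the hypoxia response element (ACGTG or GCGTG) or of the RUNX site (TGTGGT), either strand.
Aspn: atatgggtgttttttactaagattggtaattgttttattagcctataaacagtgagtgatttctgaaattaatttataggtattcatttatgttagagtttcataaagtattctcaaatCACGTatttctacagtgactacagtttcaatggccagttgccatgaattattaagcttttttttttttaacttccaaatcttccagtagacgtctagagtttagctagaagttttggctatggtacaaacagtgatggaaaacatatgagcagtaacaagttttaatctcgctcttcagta
Omd: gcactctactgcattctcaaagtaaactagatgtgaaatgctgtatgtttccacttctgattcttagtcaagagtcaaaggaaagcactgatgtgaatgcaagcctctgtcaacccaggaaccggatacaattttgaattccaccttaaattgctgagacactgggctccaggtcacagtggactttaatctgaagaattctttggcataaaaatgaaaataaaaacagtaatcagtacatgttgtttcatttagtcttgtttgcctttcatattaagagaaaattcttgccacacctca
Ogn: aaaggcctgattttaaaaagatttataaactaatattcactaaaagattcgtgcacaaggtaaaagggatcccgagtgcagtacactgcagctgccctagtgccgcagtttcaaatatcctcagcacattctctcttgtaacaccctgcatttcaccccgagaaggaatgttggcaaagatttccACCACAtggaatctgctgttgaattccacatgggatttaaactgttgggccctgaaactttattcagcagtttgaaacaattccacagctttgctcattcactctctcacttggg
Bgn: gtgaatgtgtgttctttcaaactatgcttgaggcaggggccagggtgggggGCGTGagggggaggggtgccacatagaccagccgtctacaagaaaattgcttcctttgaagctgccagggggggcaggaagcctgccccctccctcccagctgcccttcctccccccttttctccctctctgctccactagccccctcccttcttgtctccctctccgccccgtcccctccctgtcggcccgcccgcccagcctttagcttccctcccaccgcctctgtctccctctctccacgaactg
Vcan: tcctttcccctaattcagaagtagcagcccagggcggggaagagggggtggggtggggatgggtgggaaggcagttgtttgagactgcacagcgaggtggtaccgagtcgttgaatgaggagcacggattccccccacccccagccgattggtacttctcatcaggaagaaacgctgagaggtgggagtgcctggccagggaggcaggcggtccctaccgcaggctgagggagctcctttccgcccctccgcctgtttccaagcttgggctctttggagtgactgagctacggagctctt
The window of Aspn held 1 core of the hypoxia response element, that of Bgn also 1, and that of Ogn 1 RUNX core, while those of Omd and Vcan held neither. Of 32851 RefSeq promoters of this length, 43.8% held the former core and 16.8% the latter, so both are common words, and the 3 neighbours shared neither. No 2 marked motifs overlapped. Among the other members in the promoter table, Prelp held 2 hypoxia response element cores, Podn had 2 listed promoters with 2 and 1, and Fmod had none.

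Values are given as CPM, read counts divided by the library size after TMM scaling, and a log2 change is normoxia minus hypoxia, from limma-trend over all 14369 genes with Benjamini-Hochberg adjustment. A gene was called at an adjusted p under 0.05. Of the 10 members, 5 were called, 3 higher (Dcn, Lum and Vcan) and 2 lower (Bgn and Podn) at 21% O2. Over all tested genes 34.6% were called, 18.0% higher and 16.5% lower. With the replicate number as a block, which compares samples of the same number, 8 members were called (3 higher and 5 lower, with Aspn, Omd and Ogn joining the lower ones), where 46.0% of all genes were. The median log2 change was -0.18 over the members and 0.0049 over all tested genes. In 3 members, Bgn, Fmod and Vcan, the hypoxia and normoxia samples were fully separate, with no overlap, which was true of 32.6% of all genes.

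**Figure D1:**
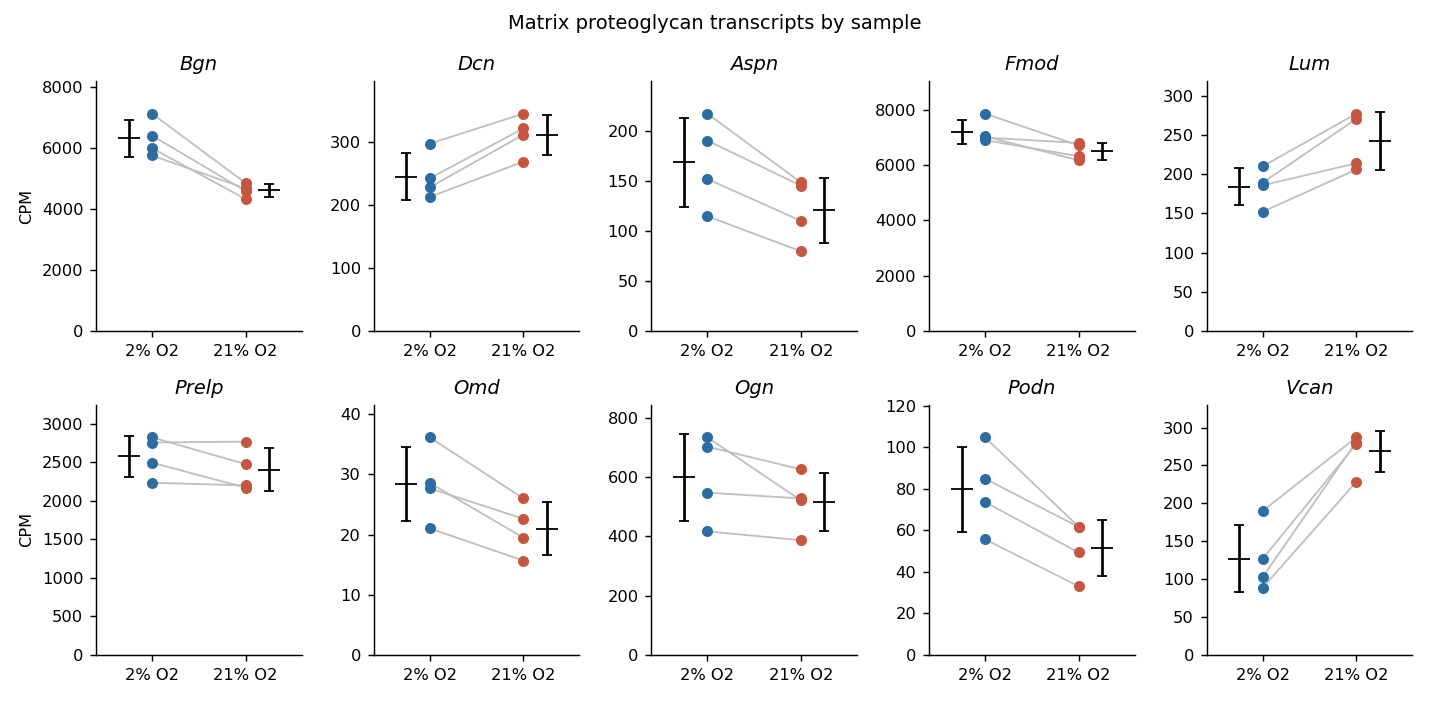
TMM-scaled CPM (y axis, from 0) of the 10 genes in the 4 hypoxia samples (2% O2, blue) and 4 normoxia samples (21% O2, red). Grey lines join samples of the same number and black marks are the mean ± SD. All lines of Vcan, Dcn and Lum go up and all lines of Bgn, Aspn, Omd, Ogn, Podn and Fmod go down, while those of Prelp are mixed.

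Vcan showed the largest change among the members. Its level was 190, 126.9, 102.8 and 88.84 CPM in hypoxia replicates 1 to 4, and 287.1, 278.2, 281.3 and 228.4 CPM in normoxia replicates 1 to 4. Every normoxia sample exceeded every hypoxia sample, and hypoxia replicate 1 was the highest of its group. The mean rose from 127 ± 45 to 269 ± 27 CPM (SD, n = 4 each), a 2.19-fold rise, with a log2 change of 1.13 ± 0.18 (SE; limma-trend adjusted p = 0.00069). The rise was present in 4 of 4 same-numbered pairs, from 0.60 to 1.45 on the log2 scale. Without both samples numbered 1 the log2 change was 1.31.

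Among the members that carry chondroitin or dermatan sulphate, Bgn and Dcn moved in opposite directions. Biglycan, which in bone is made by cells of the osteoblast lineage, is encoded on the X chromosome. Its transcript stood at 5767, 7140, 6008 and 6419 CPM in hypoxia and 4685, 4862, 4336 and 4601 CPM in normoxia, replicates 1 to 4. All normoxia samples were below all hypoxia samples. The mean fell from 6333 ± 601 to 4621 ± 219 CPM (SD, n = 4 each), which is 0.731 of the hypoxia level, with a log2 change of -0.45 ± 0.095 (SE; limma-trend adjusted p = 0.0034). Leaving out any 1 sample kept the adjusted p of Bgn at or below 0.017.

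Dcn, for decorin, a proteoglycan that coats collagen fibrils and binds TGF-beta, was at 212.5, 296.7, 241.9 and 227.6 CPM in hypoxia and 268.2, 344.2, 320.9 and 311 CPM in normoxia. The groups overlapped, since hypoxia replicate 2 lay above normoxia replicate 1, but each normoxia sample was above the hypoxia sample of the same number. The mean rose from 244.7 ± 36.7 to 311 ± 31.8 CPM (SD, n = 4 each), 1.28-fold, with a log2 change of 0.35 ± 0.10 (SE; limma-trend adjusted p = 0.018). The call for Dcn was lost without hypoxia replicate 4 (limma-trend adjusted p = 0.055), normoxia replicate 2 (0.063) or normoxia replicate 3 (0.052). It was also lost after a correction for GC content and length (log2 change 0.10, adjusted p = 0.43), though not with the block and this correction together (adjusted p = 0.042).

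Asporin, encoded by Aspn, resembles decorin but has a run of aspartate residues and binds calcium and collagen. Aspn was at 114.6, 216.9, 151.7 and 190.1 CPM in hypoxia and 79.68, 148.3, 110.1 and 145.1 CPM in normoxia. The groups overlapped because the numbered pairs differ widely in level, yet normoxia was lower in 4 of 4 pairs, by a narrow range of log2 values from -0.55 to -0.39. Without the block, the log2 change of -0.48 ± 0.21 (SE) did not pass (limma-trend adjusted p = 0.095), whereas the blocked fit called it (adjusted p = 6.8e-08). Aspn passed without the block when hypoxia replicate 1 was left out (-0.65, adjusted p = 0.014), or with the GC and length correction (-0.69, adjusted p = 0.017).

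The keratan sulphate branch of the family holds Fmod, Prelp, Lum and Omd. Fmod, for fibromodulin, a regulator of fibril assembly found in tendon and bone, was at 6989, 7852, 6895 and 7029 CPM in hypoxia and 6797, 6706, 6316 and 6170 CPM in normoxia. The groups did not overlap, but the gap between them was narrow, and hypoxia replicate 2 was well above the rest of its group. The means were 7191 ± 444 and 6497 ± 302 CPM (SD, n = 4 each). The log2 change of -0.15 ± 0.093 (SE) was not called (limma-trend adjusted p = 0.25 unblocked and 0.06 with the replicate block), and its 95% interval ran from -0.35 to 0.057.

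Prelp, whose protein anchors basement membranes to the connective tissue, was likewise not called. It was at 2754, 2232, 2821 and 2493 CPM in hypoxia and 2766, 2199, 2473 and 2169 CPM in normoxia, with groups that overlapped almost fully. Its log2 change was -0.10 (limma-trend adjusted p = 0.48 unblocked and 0.14 with the replicate block), with a 95% interval from -0.32 to 0.12, and 1 of 4 pairs was higher in normoxia. Such an interval allows a fall larger than that estimated for Ogn, so it does not show that Prelp was unaffected.

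Lum, for lumican, which spaces collagen fibrils in the cornea and other tissues, went the way of its neighbour Dcn. It was at 185.9, 210, 189.2 and 152.2 CPM in hypoxia and 213.9, 277.1, 270.5 and 206 CPM in normoxia. Normoxia replicate 4 lay just below hypoxia replicate 2, and all other normoxia values were above all hypoxia values. The rise from 184 ± 24 to 242 ± 37 CPM (SD, n = 4 each) was 1.31-fold, with a log2 change of 0.39 ± 0.11 (SE; limma-trend adjusted p = 0.019), seen in 4 of 4 pairs. The call for Lum was lost without hypoxia replicate 4 (limma-trend adjusted p = 0.061), normoxia replicate 2 (0.065) or normoxia replicate 3 (0.064), and after the GC and length correction (log2 change 0.20, adjusted p = 0.22). With the block and this correction together it was called (adjusted p = 0.00067).

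Omd and Ogn complete the row of neighbours on chromosome 13. Osteomodulin, encoded by Omd, is an acidic bone protein that binds hydroxyapatite and is tied to mature osteoblasts. Omd was the least counted member, at 21.02, 27.68, 28.57 and 36.14 CPM in hypoxia and 15.67, 22.62, 19.49 and 26 CPM in normoxia, from 211 to 503 counts. The groups overlapped, and normoxia was lower in 4 of 4 pairs. The log2 change was -0.43 ± 0.17 (SE; limma-trend adjusted p = 0.066 unblocked and 7.3e-05 with the replicate block). Omd was also called by DESeq2 (adjusted p = 0.036), with the GC and length correction (limma-trend adjusted p = 0.01), and when hypoxia replicate 1 (0.011) or normoxia replicate 4 (0.032) was left out.

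Ogn, for osteoglycin or mimecan, a small protein of bone matrix and vessel wall, was at 416.7, 733.8, 547.3 and 702.1 CPM in hypoxia and 386.9, 521.2, 527.7 and 626 CPM in normoxia. The ranges overlapped for most of their length, with replicate 1 the lowest sample in both groups. Normoxia was again lower in 4 of 4 pairs, by -0.49 to -0.053 on the log2 scale. The mean log2 change of -0.20 ± 0.17 (SE) was not called in the unblocked fit (limma-trend adjusted p = 0.4) and was called in the blocked one (adjusted p = 0.006).

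Podocan, encoded by Podn, is a collagen-binding member from a separate branch of the family. Podn was at 55.59, 104.7, 73.54 and 84.83 CPM in hypoxia and 33.05, 61.73, 49.29 and 61.57 CPM in normoxia. The groups overlapped only through hypoxia replicate 1, and normoxia was lower in 4 of 4 pairs, by -0.76 to -0.46. The mean fell from 79.7 ± 20.6 to 51.4 ± 13.6 CPM (SD, n = 4 each), which is 0.644 of the hypoxia level, the largest fall among the members (log2 change -0.64 ± 0.21 SE; limma-trend adjusted p = 0.031 unblocked and 2e-08 with the replicate block). Without the block the call for Podn was lost when hypoxia replicate 2 (0.088), 3 (0.059) or 4 (0.082) or normoxia replicate 1 (0.064) or 3 (0.061) was left out. DESeq2 (adjusted p = 0.057) and the GC and length correction (limma-trend adjusted p = 0.077) also did not call it. With this correction the fall of Podn (-0.51) was smaller than those of Aspn (-0.69) and Omd (-0.64).

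**Figure D2:**
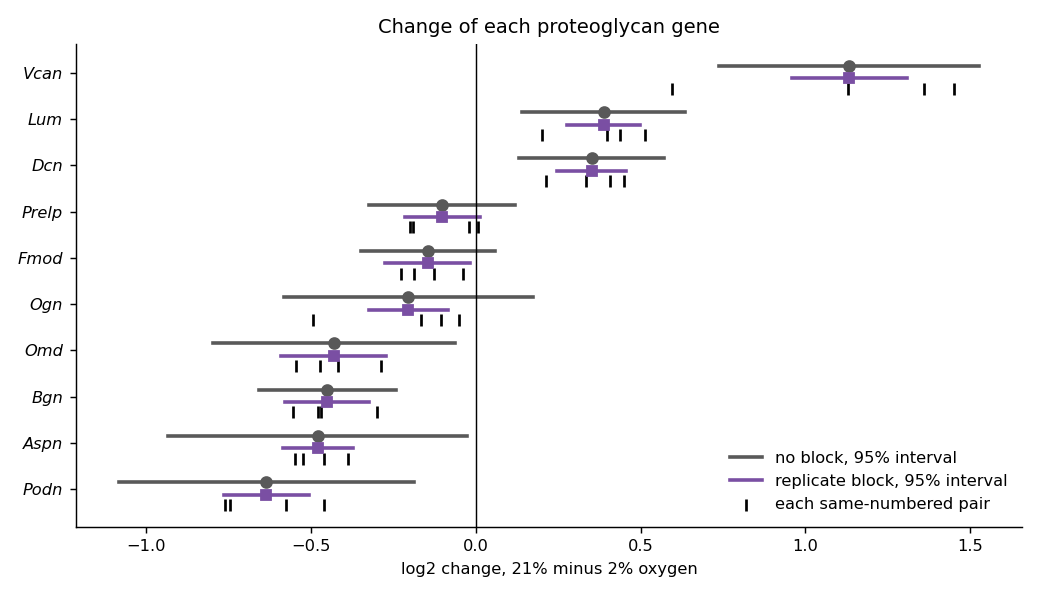
Log2 change (21% minus 2% oxygen, x axis) of each gene, with 95% intervals without the replicate block (grey) and with it (purple), and the difference in each same-numbered pair (ticks). The block leaves the estimates in place and narrows the intervals, as for Aspn and Podn, whose intervals then lie well below 0.

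Read along the chromosomes, Aspn, Omd and Ogn were lower in normoxia in every pair, Dcn and Lum were higher in every pair, and on chromosome 1 Fmod was lower in every pair and Prelp in 3 of 4, with neither called. The other leucine-rich genes next to these clusters had few counts. Ecm2, which lies in the chromosome 13 cluster, had a log2 change of -0.12 (limma-trend adjusted p = 0.69), Epyc of -0.60 (adjusted p = 0.23) and Optc of -0.67 (adjusted p = 0.2), the last at 3 to 29 counts. None of these was called by the block alone, but when it was joined to the correction for GC and length, Ecm2 (-0.36, limma-trend adjusted p = 0.041) and Epyc (-0.82, adjusted p = 0.014) were. Kera, for keratocan, was under the filter, with 1 to 17 counts per sample. Aspn, Omd and Ogn all lie within Cenpp, a gene on the opposite strand with 15 to 53 counts, which shares at most 7 exonic bases with any of them. Prelp shares 350 exonic bases with the antisense gene Gm15851, which had 0 to 3 counts. Podn overlaps Scp2, a protein-coding gene on the same strand with 1794 to 3349 counts, and shares 0 exonic bases with it.

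Together the 10 members held 1.7% ± 0.104 (SD, n = 4) of all hypoxia counts and 1.55% ± 0.0469 (SD, n = 4) of all normoxia counts. Most of these counts came from Fmod, Bgn and Prelp, which held 0.6653%, 0.549% and 0.2622% of the counts of hypoxia replicate 1. Levels between genes were compared per kb of the longest transcript. In hypoxia Bgn stood at 2376 ± 226 and Fmod at 2305 ± 142 CPM per kb, which do not differ beyond their spread, and in normoxia Fmod at 2082 ± 96.7 was above Bgn at 1733 ± 82.1. The place of Bgn rests on the length used, since over the union of its exons it was at 1038 CPM per kb in hypoxia and Fmod at 2175. Prelp followed at 712 ± 74.4 and 664 ± 77.1 CPM per kb, and Ogn at 234 ± 57.2 and 201 ± 38.3, in hypoxia and normoxia.

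Lum (75.3 ± 9.79), Aspn (72.3 ± 19.2) and Dcn (52.1 ± 7.82 CPM per kb) formed the next group in hypoxia, where Lum and Aspn do not differ beyond their spread. In normoxia they stood further apart, at 98.8 ± 15.2, 51.9 ± 13.9 and 66.3 ± 6.77 CPM per kb, so that Dcn had passed Aspn in the order of means, with ranges that overlapped. Podn, Omd and Vcan were lowest in hypoxia, at 21.9 ± 5.66, 12.6 ± 2.75 and 10.2 ± 3.6 CPM per kb, and the ranges of neighbours in this order overlapped. In normoxia Vcan, at 21.6 ± 2.19, was above Podn at 14.1 ± 3.73 and Omd at 9.31 ± 1.96 CPM per kb.

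**Figure D3:**
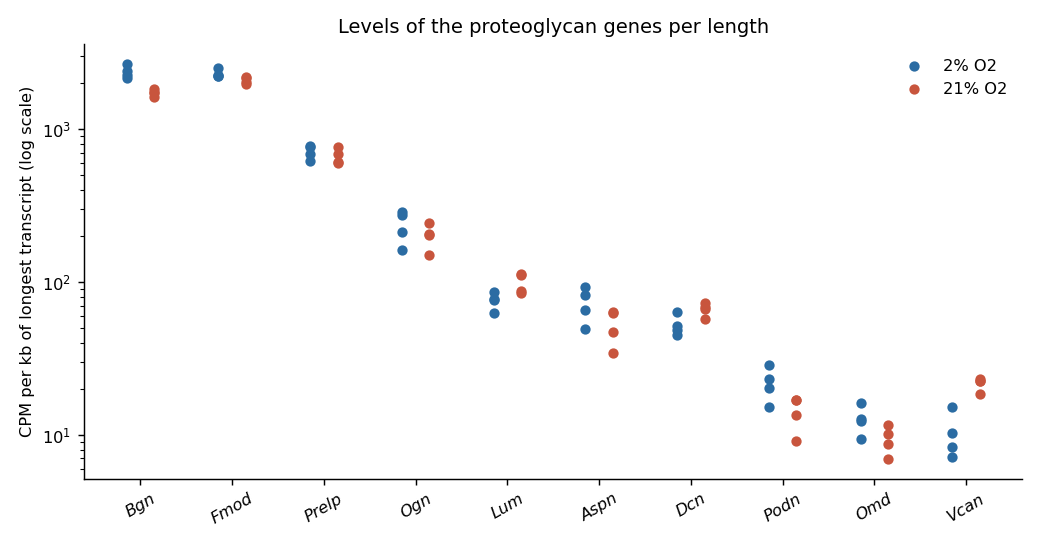
CPM per kb of the longest transcript (log axis) of the 10 genes in each hypoxia (blue) and normoxia (red) sample, ordered by the hypoxia mean. Bgn and Fmod lead, and Vcan moves from the lowest mean in hypoxia to above Podn and Omd in normoxia.

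Ratios within a sample do not depend on its depth. The ratio of Bgn to Dcn was 47.7, 42.3, 43.7 and 49.6 in hypoxia and 30.7, 24.9, 23.8 and 26 in normoxia, with no overlap. It dropped to 0.573 of its hypoxia value (log2 difference -0.80, two-sided exact permutation test over 70 assignments, p = 0.0286, the smallest this test allows, adjusted over 4 ratios p = 0.0381). For all 4 ratios this test ignores the pairing by number. With the pairing kept, 4 pairs allow no p below 0.125 (exact sign-flip permutation), so no ratio could pass. The ratio of Aspn to Dcn, which are close relatives, was 1.09, 1.47, 1.26 and 1.68 in hypoxia and 0.6, 0.869, 0.692 and 0.941 in normoxia. Aspn was above Dcn per kb in every hypoxia sample and below it in every normoxia sample (log2 difference -0.83, exact permutation p = 0.0286, adjusted p = 0.0381), although without normoxia replicate 1 this p was 0.0571. Over the union of exons the order of means was the same, at 71.5 CPM per kb for Aspn and 41.9 for Dcn in hypoxia. In normoxia these means lay close, at 51.3 for Aspn and 53.3 for Dcn, so their order within each normoxia sample rests on the length used.

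The ratio of Fmod to Lum, which compete for the same site on collagen, was 29.5, 29.3, 28.6 and 36.2 in hypoxia and 24.9, 19, 18.3 and 23.5 in normoxia. It was lower in every normoxia sample (log2 difference -0.53, exact permutation p = 0.0286, adjusted p = 0.0381), though not past the threshold without hypoxia replicate 4 (-0.46, exact permutation p = 0.0571) or after the GC and length correction (-0.27, exact permutation p = 0.2). The ratio of Vcan to Dcn was 0.338, 0.162, 0.161 and 0.148 in hypoxia and 0.404, 0.305, 0.331 and 0.277 in normoxia. It was higher in normoxia in 4 of 4 pairs, but hypoxia replicate 1 lay among the normoxia samples, and the difference of 0.78 did not pass (exact permutation p = 0.114). Without that sample the difference was 1.06 (exact permutation p = 0.0286).

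**Figure D4:**
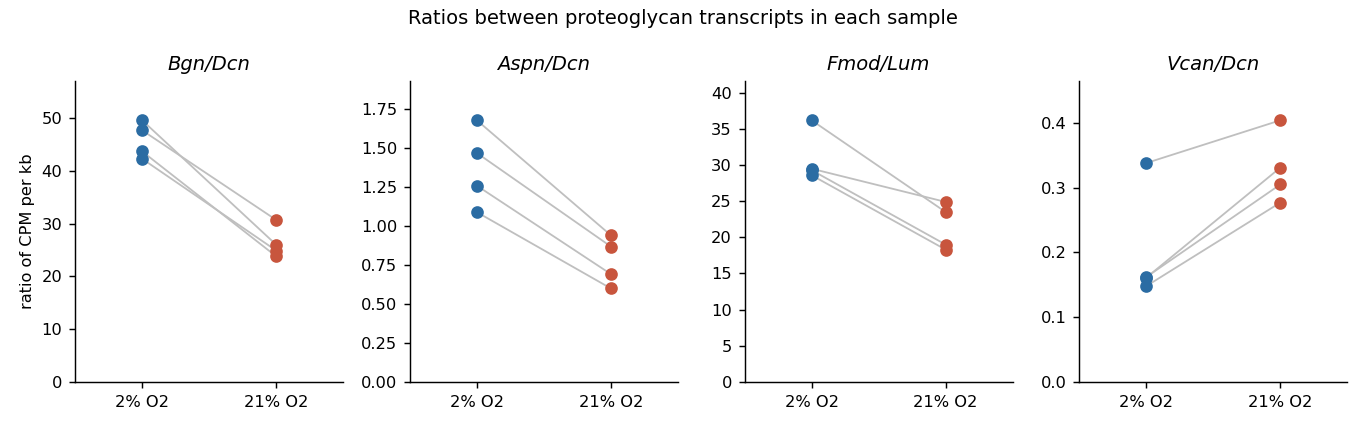
Ratio of CPM per kb (y axis, from 0) for 4 pairs of genes in each hypoxia (blue) and normoxia (red) sample, grey lines joining the same number. The first 3 ratios are lower in all normoxia samples, and for Vcan to Dcn hypoxia replicate 1, at 0.338, sits among the normoxia values.

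Around the members, 7 lists of 121 genes covered other proteoglycans and the making, binding and cutting of their chains. Of the 101 that were tested, 49 were called, 29 higher and 20 lower, or 48.5% beside 34.6% of all genes. Among other leucine-rich proteoglycans, 1 of 6 tested was called, Tsku, for the secreted protein tsukushi, which rose from 53.6 ± 7.62 to 75.2 ± 11.1 CPM (SD, n = 4 each; log2 change 0.49, limma-trend adjusted p = 0.0057). This list had a median of -0.13.

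Of 25 other matrix and surface proteoglycans tested, 5 were higher and 8 lower, with a median of -0.20. Prg4, for the joint lubricant lubricin, rose from 506 ± 142 to 1035 ± 244 CPM (log2 change 1.04, limma-trend adjusted p = 0.001). Cd44, the hyaluronan receptor that can itself carry chains, rose with a log2 change of 0.72 (adjusted p = 0.013). Hspg2, for the basement membrane proteoglycan perlecan, fell from 2708 ± 372 to 1480 ± 126 CPM (log2 change -0.87, limma-trend adjusted p = 0.00013), and Esm1, for endocan, fell with a log2 change of -0.92 (adjusted p = 0.018). The call for Esm1 was lost without hypoxia replicate 4 or normoxia replicate 2 (adjusted p = 0.052 each).

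All 20 genes of the linker and precursor list were tested, and 8 were higher and 2 lower, with a median of 0.17. Uxs1, which makes the UDP-xylose that starts the linker of chondroitin and dermatan sulphate chains, rose from 25.8 ± 2.73 to 44.8 ± 2.88 CPM (log2 change 0.80, limma-trend adjusted p = 9.9e-05). Pxylp1, a phosphatase acting on the xylose of the linker, had a log2 change of 0.64 (adjusted p = 0.00078). Slc35b2, which carries the sulphate donor PAPS into the Golgi, had a change of -0.42 (adjusted p = 0.00052), and Papss1, which makes PAPS, of -0.19 (adjusted p = 0.04). The call for Papss1 was lost without hypoxia replicate 2 (limma-trend adjusted p = 0.068), 3 (0.057) or 4 (0.093), normoxia replicate 1 (0.092) or 4 (0.077) or both samples numbered 1 (0.097), and without the filter (0.058).

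Of 15 tested genes for chondroitin and dermatan sulphate chains, 5 were higher and 5 lower, with a median of -0.0036. Csgalnact1, which places the sugar that commits a chain to chondroitin, rose from 101 ± 14 to 192 ± 14.1 CPM (log2 change 0.93, limma-trend adjusted p = 6.4e-05), and Chst11, a chondroitin sulphotransferase, had a change of 0.70 (adjusted p = 0.0022). Chpf, a chondroitin polymerising factor, fell from 262 ± 7.45 to 195 ± 6.35 CPM (log2 change -0.42, limma-trend adjusted p = 0.00015), and the sulphotransferase gene Chst15 had a change of -0.49 (adjusted p = 0.042). The call for Chst15 was lost without hypoxia replicate 2 (limma-trend adjusted p = 0.1), 3 (0.057) or 4 (0.12) or normoxia replicate 1 (0.1), 3 (0.088) or 4 (0.051), and with the GC and length correction (0.054), limma-voom (0.078) or no filter (0.062). Among 9 tested genes for keratan sulphate chains none was higher and 2 were lower, with a median of -0.23, and with the block 1 was higher and 4 lower. Those 2 were B4galt1, a galactosyltransferase (log2 change -0.23, limma-trend adjusted p = 0.0062), and the chain-extending enzyme gene B3gnt7 (-1.42, adjusted p = 0.0092), which had only 0 to 14 counts.

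The hyaluronan list, which holds the ligand of versican and its makers and receptors, had 6 of 14 tested genes higher and 1 lower, with a median of 0.21. Has2, a hyaluronan synthase, rose from 31.1 ± 5.51 to 64.7 ± 9.54 CPM (log2 change 1.05, limma-trend adjusted p = 0.00016), and Hmmr, a hyaluronan-binding protein that also acts on the mitotic spindle, had a change of 0.93 (adjusted p = 0.005). Stab1, a scavenger receptor for hyaluronan found on macrophages and sinusoidal endothelium, fell from 210 ± 87.2 to 75 ± 19.9 CPM (log2 change -1.43, limma-trend adjusted p = 0.0018). Of 12 proteases and their inhibitor, 4 were higher and 2 lower, with a median of 0.13. Mmp3, a matrix metalloproteinase that cuts decorin, changed by 0.81 (limma-trend adjusted p = 0.0034) and Tll1, a tolloid-like protease, by 0.71 (adjusted p = 0.016). Adamts9, for a protease that cuts versican, changed by -0.54 (limma-trend adjusted p = 0.007), and Pcolce, which enhances procollagen cleavage, by -0.27 (adjusted p = 0.0055). The call for Tll1 was lost without normoxia replicate 2 (limma-trend adjusted p = 0.055) and that for Pcolce with the GC and length correction (adjusted p = 0.058).

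**Figure D5:**
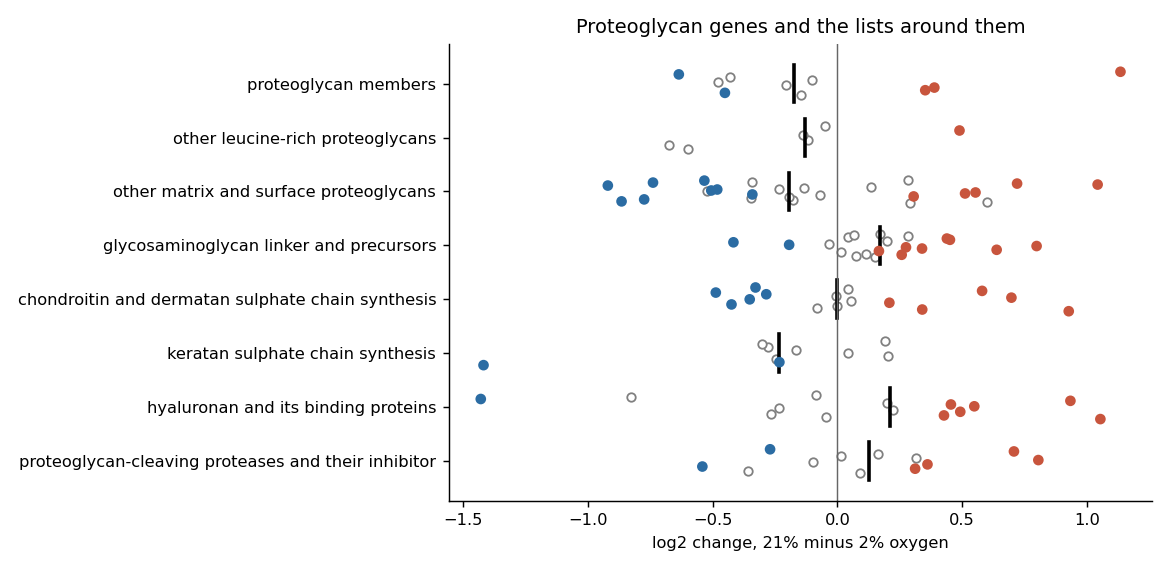
Log2 change (21% minus 2% oxygen, x axis) of each tested gene in the members and 7 lists around them. Filled points were called without the block (red higher, blue lower), open points were not, and the black bar is the median of the list, which lies between -0.23 for keratan sulphate chain synthesis and 0.21 for hyaluronan.

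Markers of some other cell types also differed between the groups. Of the sort markers, Pdgfra (encoding CD140a) and Ly6a (encoding Sca-1) were at means of 175 and 434 CPM in hypoxia and 206 and 393 in normoxia. Neither was called unblocked (limma-trend adjusted p = 0.075 and 0.26), but with the block Pdgfra was higher (0.00087) and Ly6a lower (0.021). The 5 erythroid genes were at 0 in all samples. Ptprc, which encodes CD45, had 140 to 263 counts per sample. Over 8 osteoblast markers, the summed level was 255 to 300 CPM in hypoxia and 166 to 221 in normoxia, and 4 of 6 tested were lower (5 with the block). Bglap, a marker of mature osteoblasts, had only 2 to 16 counts. Smooth muscle markers summed to 3097 to 4241 CPM in hypoxia and 2341 to 2739 in normoxia, with 4 of 5 tested lower (1 higher and 4 lower with the block). Chondrocyte markers summed to 4905 to 6648 and 3994 to 4773 CPM, with 2 of 4 tested lower (3 with the block). Tenocyte markers summed to 2326 to 4220 and 2240 to 3629, with 1 of 5 higher and 2 lower (2 and 2 with the block). The smooth muscle, chondrocyte and tenocyte sums rested mostly on 1 gene each. These were Acta2 (means 3325 and 2357 CPM in hypoxia and normoxia), Comp (4446 and 3468) and Thbs4 (2807 and 2569). Macrophage and blood markers summed to 506 to 1011 and 611 to 1147 CPM, with 1 of 8 called, which was Lyz2, higher, and with the block 1 higher and 5 lower. Adipocyte markers summed to 29.6 to 58.9 and 45.4 to 103 CPM and endothelial ones to 1.62 to 2.65 and 1.28 to 2.09, with none called (with the block 1 adipocyte gene higher), and Emcn was at 0. The MSC markers summed to 2342 to 3255 and 2106 to 2729 CPM, with 1 of 8 called in each direction, and with the block 3 higher and 4 lower. The part of these cell types in the changes of the members was not tested.

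Depth and base composition also differed along the comparison. Totals ran from 12898291 to 13433824 counts in 7 samples and to 25132141 in hypoxia replicate 1. Without both samples numbered 1, 7 members were called, 3 higher and 4 lower. Across 14353 genes of the same libraries, the log2 change had a Spearman's rho of -0.39 with transcript GC content, as a description. Dcn and Lum, at 37.4% and 41.9% GC, lie below the median of 49.7%, on the side where values were higher in normoxia, and with the correction their changes were smaller. Aspn, Omd and Ogn, at 34.3%, 36.1% and 36.3% GC, lie on that side too, but were lower in normoxia, and with the correction their changes were larger (-0.69, -0.64 and -0.43).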

How the data were processed

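The samples, groups and culture are those given above. Per the study's methods, the authors ran zUMIs with STAR and featureCounts on single-end reads (mm10, Ensembl annotation), and deposited raw counts per gene, not normalized. Strand, intron and multi-mapping settings are not given in the sources used here, so reads of overlapping genes on either strand cannot be told apart from those of the members.

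Symbols, positions and transcript lengths came from GENCODE M21 (GRCm38), with a symbol for 53274 of 53465 identifiers. The filter of the study, filterByExpr of edgeR 4.0.16 with a minimum count of 5, kept 99.93% of counts, and groups were compared by limma-trend, as there, (limma 3.58.1, R 4.3.3) at an adjusted p of 0.05. TMM factors and a prior count of 3 for log2 CPM were added, and log2 changes on this scale understate those of low genes. DESeq2 1.42.0, edgeR's quasi-likelihood test, limma-voom and other settings were alternatives. The GC and length correction removed splines of 5 degrees of freedom, with any true change that follows them. The fits were tested on simulated data. Ratios used CPM per kb.

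The study divides each sorted population between the conditions, and deviations from group means of same-numbered samples correlated by 0.47, 0.28, 0.25 and 0.17 across 14369 genes (other numbers at most 0.076), so the numbers were taken to pair the samples. P-values measure the spread between these samples.

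Members and lists were chosen with earlier results of these data known. Named genes are the members, their neighbours Kera, Epyc, Optc and Ecm2, and up to 2 called genes with the largest rise and 2 with the largest fall per list. The other genes named are overlapping genes and markers, of which Lyz2, Bglap, Emcn, Acta2, Comp and Thbs4 were picked after their values were seen. A floor of 3 counts is 0.119 to 0.233 CPM per sample, covering counting error only.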

Additional observations from a re-analysis of the deposited data

Results flagged for a closer look

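In groups of 4, the sample at the edge of a group was compared with its nearest neighbour, as a share of the range of the group (Dixon's test at 95%). Chance flags about 1 in 20 groups, and 4 of 30 were flagged. For Fmod in hypoxia, replicate 2 stood apart at 7852 CPM (0.86 of the range). For Vcan in normoxia, replicate 4 stood below the rest at 228.4 CPM (0.848 of the range). The log2 ratio of Fmod to Lum was high in hypoxia replicate 4, at 5.18 (0.868 of the range), and that of Vcan to Dcn was high in hypoxia replicate 1, at -1.57 (0.89 of the range). What set these samples apart was not tested.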

How the results depend on the processing

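No log2 change of a member or of another named gene that was tested, markers and overlapping genes aside, changed direction under any alternative. No ratio did either. The balance of calls did shift. Of the members, 3 were called higher and 2 lower, but 1 higher and 3 lower with the GC and length correction. With that correction 4241 of 14369 genes were called. Lower member calls also outnumbered higher ones with the replicate block, alone or with the correction (3 higher and 5 lower each). The same held without hypoxia replicate 1 or both samples numbered 1 (3 and 4 each), and without normoxia replicate 2 (1 and 2). Over all genes, more were called higher than lower, but the reverse held with DESeq2 or without normoxia replicate 1, 2 or 4. With RLE factors in place of TMM, the median log2 change over all genes was -0.0049, beside 0.0049. The replicate block, alone or with the GC and length correction, moved the members called from 5 to 8, by adding Aspn, Omd and Ogn. Of 14369 genes, 6610 were called with the block alone and 6210 with both. Markers and overlapping genes aside, the block alone changed no other call among the members and named genes, and with the correction it also called Epyc and Ecm2. Leaving out 1 sample gave 2 to 7 members called, with 2 without hypoxia replicate 4 or normoxia replicate 3, 3 without normoxia replicate 2 and 7 without hypoxia replicate 1. With the replicate block, where 4 pairs allow no p below 0.125 (exact sign-flip permutation), the log2 ratios Bgn to Dcn (-0.80), Aspn to Dcn (-0.83) and Fmod to Lum (-0.53) could not pass. With the GC and length correction, Fmod to Lum was -0.27, Bgn to Dcn -0.53, Aspn to Dcn -0.79 and Vcan to Dcn 0.92. Leaving out 1 sample gave -0.88 to -0.76 for Bgn to Dcn, -0.94 to -0.72 for Aspn to Dcn, -0.61 to -0.46 for Fmod to Lum and 0.66 to 1.06 for Vcan to Dcn. Without both samples numbered 1, an alternative chosen after seeing the data in which no p can fall below 0.1, the ratios were -0.86 for Bgn to Dcn, -0.82 for Aspn to Dcn and -0.63 for Fmod to Lum. The causes were not tested. Over all alternatives, member calls were the same in 161 cases, gained in 14 and lost in 15. Calls of the other named genes that were tested, markers and overlapping genes aside, were the same in 452, gained in 2 and lost in 20. DESeq2 gave B3gnt7 no adjusted p. Low counts limit what can be shown for B3gnt7, Kera, Epyc, Optc and Bglap.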
